A study of Mus musculus with 15 samples.

Results

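The microRNA genes followed here, in carotid arteries of mice, are known from the artery wall and from the white blood cells that enter it: Mir21a, Mir143, Mir145a, Mir221, Mir222, Mir155, Mir146, Mir223 and Mir126a. They were taken by gene symbol, present or earlier, from the probe sets that carry 1 symbol. Of the 9 genes, 5 had such a probe set (Mir143, Mir145a, Mir221, Mir222 and Mir146), 1 each, among 22180 genes measured. The other 4 are on probe sets that also carry the symbol of a longer gene (Vmp1 for Mir21a, Mir155hg for Mir155, F630028O10Rik for Mir223 and Egfl7 for Mir126a). Those probe sets are described as shared, and their values are assigned to neither gene.

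The arteries came from female mice labelled C57Bl/6J, 21 to 22 weeks old, and were taken 5 days after the left common carotid artery was tied off, which makes the vessel wall thicken. Of 15 arrays, 3 were of ligated arteries from Has3-deficient mice and 4 of ligated arteries from wildtype mice. Another 4 were of Has3-deficient arteries without ligation, and 4 of wildtype arteries without ligation. Has3 encodes an enzyme that makes the matrix sugar hyaluronan, and the labels give neither the construct nor the cells in which it is lost. Nor do they say whether each array is a separate animal, so a p-value here covers the spread of these arrays, which may be technical.

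A microRNA gene is copied into a long primary transcript, from which the enzymes Drosha and Dicer cut a hairpin and then a short mature strand. The mature strand, held by an Argonaute protein, binds messenger RNAs through its seed, bases 2 to 8, and lowers their use. In arteries, miR-143 and miR-145 are made from 1 transcript, rich in contractile smooth muscle, and favour the contractile state. miR-21, miR-221 and miR-222 are linked to smooth muscle growth, miR-126 to endothelium, miR-223 to neutrophils and other myeloid cells, and miR-155 and miR-146a to inflammatory signalling. Total RNA was labelled as cDNA here, so a probe set of a microRNA gene reads transcripts that contain the hairpin region, and the mature strand was not measured as such.

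The mature sequences show which members could share targets. They are from RefSeq (build GRCm38.p6), written 5′ to 3′ with the seed in capitals; Mir143 and Mir145a are named only. miR-221 and miR-222 have the seed GCUACAU in common, as miR-146a and miR-146b have GAGAACU. The remaining 4 each have a seed of their own among the members.
miR-221-3p: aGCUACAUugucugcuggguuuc
miR-222-3p: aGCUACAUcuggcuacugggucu
miR-146a-5p: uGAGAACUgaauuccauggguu
miR-146b-5p: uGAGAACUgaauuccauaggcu
miR-21a-5p: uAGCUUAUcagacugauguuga
miR-155-5p: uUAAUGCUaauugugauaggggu
miR-223-3p: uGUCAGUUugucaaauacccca
miR-126a-3p: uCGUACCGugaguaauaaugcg

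Mir221 and Mir222 are neighbours on the minus strand of the X chromosome, with 504 bases between their hairpins, and each has its own probe set. Their hairpins are shown with the annotated mature strands in capitals, at chrX:19146294-19146388 for Mir221 and chrX:19146893-19146971 for Mir222. In the RefSeq gene table no other gene overlaps either of them, nor Mir146 on chromosome 11.
Mir221: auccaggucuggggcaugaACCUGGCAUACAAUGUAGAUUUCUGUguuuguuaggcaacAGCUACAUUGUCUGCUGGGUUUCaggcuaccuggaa
Mir222: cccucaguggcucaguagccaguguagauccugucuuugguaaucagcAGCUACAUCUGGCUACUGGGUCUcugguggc

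The deposited table gives log2 values, each probe set relative to its own median over the 15 arrays, so it holds differences between arrays and no levels. A value of 0.00 marks an array at the median, and several arrays can be tied there, as for the probe set of Mir126a and Egfl7. Whether the defining markers of an artery were present could therefore not be read, only how they differed. Differences were tested with limma in 1 fit of the 4 groups. A gene is said to have passed where its p, adjusted over all genes by the method of Benjamini and Hochberg, was under 0.05. The Has3 probe set was not shown to be lower in Has3-deficient mice, with differences of -0.20 ± 0.16 in ligated and 0.09 ± 0.14 in non-ligated arteries (log2 ± standard error), so it does not check the genotype labels. There were 5 non-ligated arrays that stood apart by neuron or fat genes. The mean of 7 neuron genes was 1.32 to 4.50 in Has3-deficient arrays 1, 3 and 4 and 2.71 in wildtype array 2. The mean of 7 fat genes was 1.81 in Has3-deficient array 4 and 1.59 in wildtype array 1. Whether this came from tissue around the artery was not tested.

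Ligated arteries had less Mir143 and Mir145a signal than non-ligated ones in both genotypes, and these were the changes of largest size among the 5 members. In wildtype arteries 3 of 5 members passed, 2 lower (Mir143 and Mir145a) and 1 higher (Mir146), where 27.8% of all genes passed, 13.2% higher and 14.6% lower. In Has3-deficient arteries 2 of 5 passed, Mir143 and Mir145a, both lower, where 18.3% of all genes passed, 10.2% higher and 8.08% lower. Over the 5 members the median change was 0.12 in Has3-deficient and 0.21 in wildtype arteries, beside -0.030 and 0.0055 over all genes.

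Mir143 and Mir145a lie within the non-coding gene Carmn on chromosome 18. Mir145a encodes miR-145, which represses Klf4 and Klf5, factors that oppose the contractile programme. In wildtype arteries it was at -1.02, -1.29, -0.57 and -1.01 in ligated arrays, against 0.85, 0.57, 1.27 and 0.61 in non-ligated ones. In Has3-deficient arteries it was at -1.07, -0.17 and -0.66 in ligated arrays, against 0.98, 0.91, 0.16 and 0.00 in non-ligated ones. The ligated arrays lay below all non-ligated arrays of the same genotype, as 16.0% of genes did in wildtype and 13.4% in Has3-deficient arteries. Mir145a fell by 1.80 ± 0.25 log2 units in wildtype (3.48-fold lower, adjusted p = 9.29e-05) and by 1.14 ± 0.27 in Has3-deficient arteries (2.21-fold lower, adjusted p = 0.00923). The Has3-deficient call was lost without ligated array 3, at -0.93 (adjusted p = 0.0619), and quantile normalization moved the value to -1.78 (adjusted p = 0.034).

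Mir143 lies beside Mir145a in the same transcript. It was at -1.23, -1.30, -0.74 and -1.15 in wildtype ligated arrays, against 0.53, 0.17, 0.999 and 0.25 in wildtype non-ligated ones. In Has3-deficient arteries it was at -0.62, -0.12 and -0.42 in ligated arrays, against 0.97, 1.36, 0.15 and 0.00 in non-ligated ones. Again the ligated arrays lay below the non-ligated arrays of their genotype, and the 4 Has3-deficient non-ligated arrays were spread widely, 2 near the median and 2 about 1 log2 unit above it. Mir143 fell by 1.59 ± 0.27 in wildtype (3.01-fold lower, adjusted p = 0.000485) and by 1.01 ± 0.30 in Has3-deficient arteries (2.01-fold lower, adjusted p = 0.0287). The Has3-deficient call was lost without ligated array 3 (-0.89, adjusted p = 0.119) or 6 (-0.99, adjusted p = 0.0813), without non-ligated array 1 (-0.89, adjusted p = 0.0786) or 2 (-0.76, adjusted p = 0.0681), with only the Has3-deficient groups fitted (adjusted p = 0.101), and with quantile normalization (-1.69, adjusted p = 0.0875). Without the 5 arrays high in neuron or fat genes the value was -1.75. That fit keeps only 1 Has3-deficient non-ligated array, array 2, the highest of its group at 1.36.

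**Figure D1:**
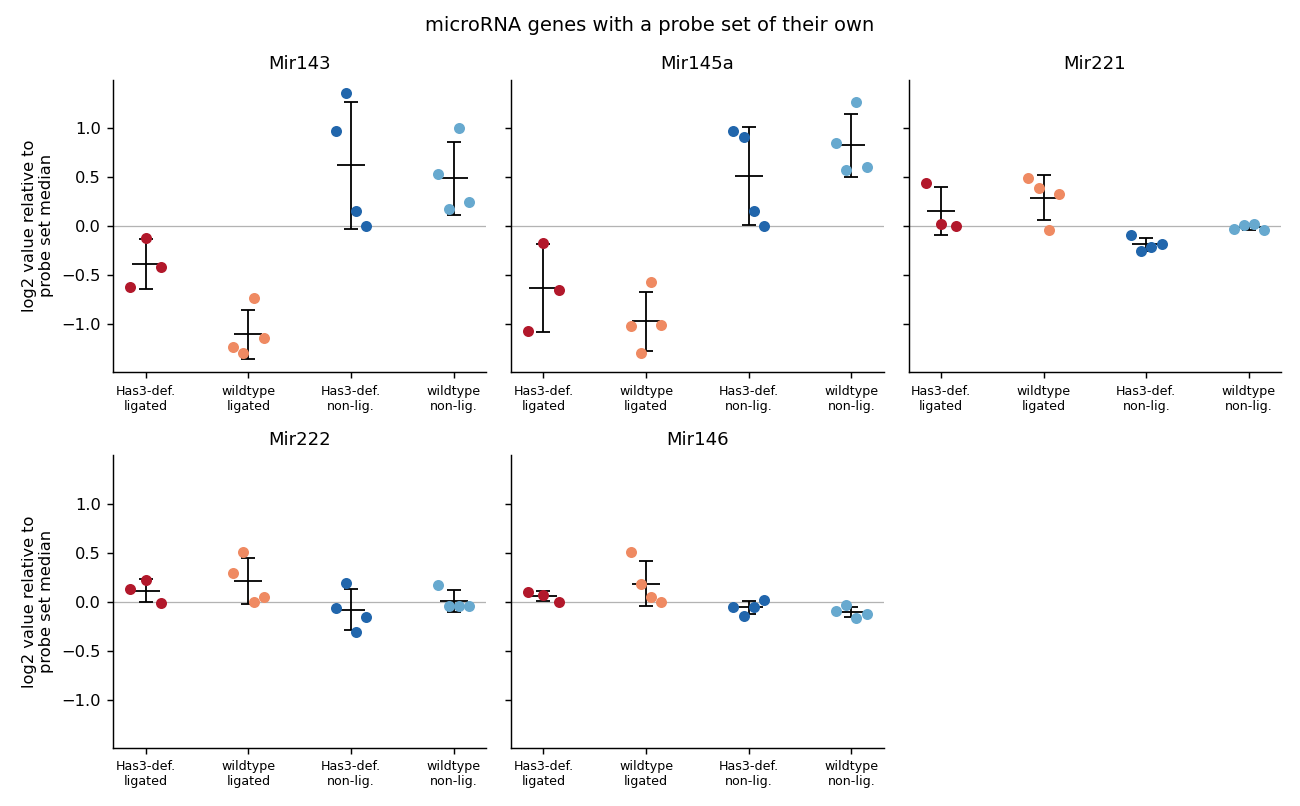
Values of the 5 microRNA genes that have a probe set of their own, as log2 relative to the probe set's median over 15 arrays (vertical axis), in 4 groups; each point is 1 array, the dash is the group mean and the bar 1 standard deviation. The ligated arrays lie below the non-ligated ones for Mir143 and Mir145a, while Mir221, Mir222 and Mir146 stay between -0.30 and 0.51.

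Carmn, the long non-coding gene that carries both hairpins and is known from smooth muscle, has a separate probe set. It was at -0.71, -0.38 and -0.62 in Has3-deficient ligated arrays, against 0.77, 0.67, 0.00 and 0.10 in Has3-deficient non-ligated ones. In wildtype it was at -1.22, -1.29, -1.18 and -0.98 in ligated arrays, against 0.32, 0.29, 0.45 and 0.45 in non-ligated ones. Neither pair of groups overlapped. Carmn fell by 0.95 ± 0.16 in Has3-deficient (adjusted p = 0.000823) and by 1.54 ± 0.15 in wildtype arteries (adjusted p = 3.7e-06), close in size to Mir143 in each genotype.

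Markers of contractile smooth muscle were lower in the same arteries. Of 12 such genes 12 fell in Has3-deficient and 11 fell in wildtype ligated arteries, such as Synpo2 (-1.18 and -1.89), Pdlim3 (-0.80 and -1.45) and Tpm2 (-0.86 and -1.33), and the list's median change was -0.83 and -1.22. Their mean ran from -0.57 to -0.38 in Has3-deficient ligated arrays and from -0.94 to -0.36 in wildtype ligated arrays, against -0.018 to 0.54 in Has3-deficient and 0.21 to 0.56 in wildtype non-ligated arrays. In pieces of artery, fewer cells of a type and less RNA per cell cannot be told apart, and the part of smooth muscle content in the Mir143 and Mir145a values was not tested.

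**Figure D2:**
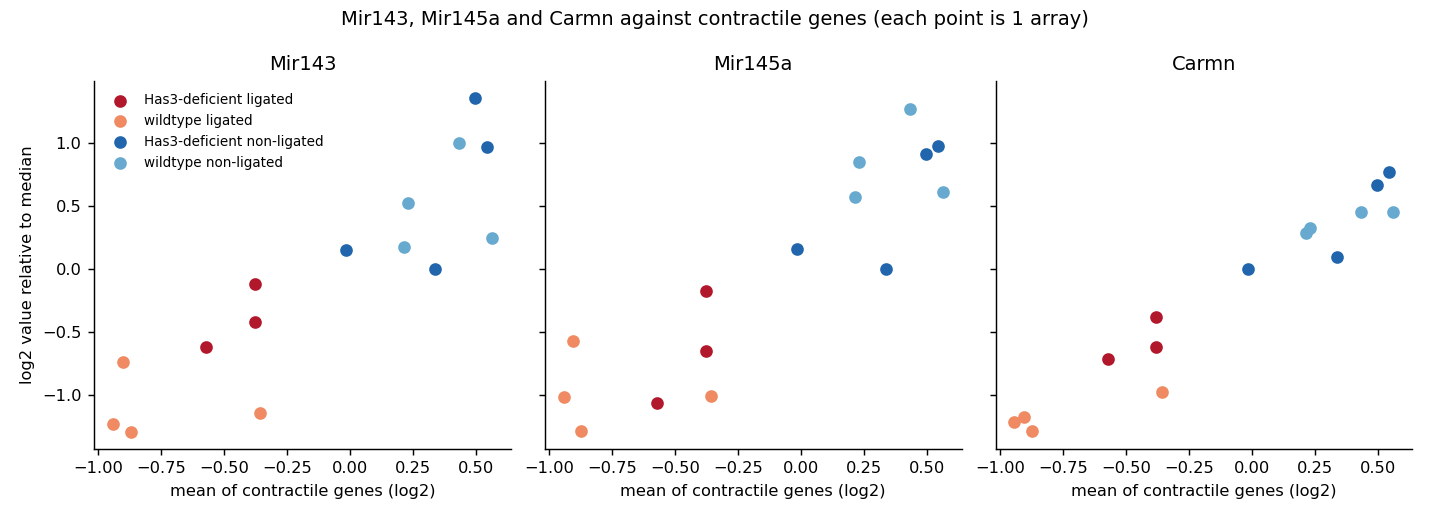
Mir143, Mir145a and Carmn (vertical axes, log2 relative to the probe set's median) against the mean of 12 contractile smooth muscle genes (horizontal axis, log2) in each of 15 arrays, coloured by group. Ligated arrays lie at the lower left, with the contractile mean between -0.94 and -0.36, and non-ligated arrays at the upper right.

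The order of the Mir143 group means was Has3-deficient non-ligated (0.62 ± 0.65, SD), wildtype non-ligated (0.49 ± 0.37), Has3-deficient ligated (-0.39 ± 0.26) and wildtype ligated (-1.10 ± 0.25). For Mir145a, wildtype non-ligated came highest (0.83 ± 0.32), then Has3-deficient non-ligated (0.51 ± 0.50), Has3-deficient ligated (-0.63 ± 0.45) and wildtype ligated (-0.97 ± 0.30). For Mir145a the Has3-deficient ligated arrays lay below the Has3-deficient non-ligated ones, as 13.4% of genes did. For Mir143 the Has3-deficient ligated arrays lay above the wildtype ligated ones, as 3.55% of genes did. The wildtype non-ligated and Has3-deficient ligated groups, neighbours for Mir143, differ in both genotype and ligation and were not compared. The other neighbours overlapped.

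Between genotypes none of the 5 members passed with limma, either in ligated arteries, where 0 of 22180 genes passed (0%), or in non-ligated ones, where 19 did (0.0857%). At an unadjusted p under 0.05 the numbers were 1 in ligated (Mir143; 4.10% of all genes) and 0 in non-ligated arteries (13.4% of all genes). Mir143 was higher in the Has3-deficient ligated arrays than in all wildtype ligated arrays, by 0.72 ± 0.30 (95% interval 0.082 to 1.35, unadjusted p = 0.0296, adjusted p = 1.0). Such a separation upward was seen for 3.55% of all genes. Carmn showed it too, at 0.59 ± 0.16 (interval 0.24 to 0.95, adjusted p = 1.0), and Mir145a differed by 0.34 (interval -0.25 to 0.93) with overlapping groups. That value was 0.11 without Has3-deficient ligated array 5, 0.56 without array 3 and 0.12 with quantile normalization. Contractile genes had a median difference of 0.38 in the same comparison, with 0 of 12 passing.

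The test of whether the ligation response differed between genotypes passed for 0 of 5 members and for 0 of all genes (0%), also with 0 members at an unadjusted p under 0.05 (8.12% of all genes). The response of Mir145a was smaller in Has3-deficient arteries by 0.66 ± 0.37 log2 units (interval -0.15 to 1.46, adjusted p = 0.684) and that of Mir143 by 0.58 ± 0.40 (interval -0.28 to 1.45, adjusted p = 0.74). These intervals hold both no difference and a difference of over 1 log2 unit. Without the 5 arrays high in neuron or fat genes, which leaves 1 Has3-deficient non-ligated array, the difference was 0.37 for Mir145a (adjusted p = 0.802) and -0.020 for Mir143 (adjusted p = 0.994). Leaving out 1 array at a time gave 0.43 to 0.87 for Mir145a, lowest without Has3-deficient ligated array 5, and 0.38 to 0.83 for Mir143, lowest without Has3-deficient non-ligated array 4, and quantile normalization gave 0.24 for Mir143. For Carmn the difference was 0.59 ± 0.22 (unadjusted p = 0.0197, adjusted p = 0.532).

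Mir221 and Mir222, whose strands repress the cell cycle inhibitor Cdkn1b, were slightly higher after ligation without passing. Mir221 was at 0.44, 0.026 and 0.00 in Has3-deficient ligated arrays, against -0.091, -0.25, -0.21 and -0.18 in Has3-deficient non-ligated ones. In wildtype it was at 0.49, 0.39, -0.041 and 0.33 in ligated arrays, against -0.031, 0.016, 0.023 and -0.037 in non-ligated ones. In Has3-deficient arteries the groups did not overlap, as for 13.0% of genes upward, while in wildtype ligated array 3 was the lowest of the 8.

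The change of Mir221 was 0.34 ± 0.12 in Has3-deficient (1.26-fold, adjusted p = 0.0665) and 0.30 ± 0.11 in wildtype arteries (1.23-fold, adjusted p = 0.0599). It passed in wildtype without ligated array 3 (0.41, adjusted p = 0.00506) and with array weights (0.32, adjusted p = 0.0314), and in Has3-deficient arteries with quantile normalization (0.33, adjusted p = 0.0434). Without Has3-deficient ligated array 3, the highest of its group, the change was 0.20 (adjusted p = 0.322), smaller by more than 1.5 times. The probe set of Mir222, next to it on the chromosome, changed by 0.20 ± 0.13 (adjusted p = 0.357) in Has3-deficient and 0.21 ± 0.12 (adjusted p = 0.252) in wildtype arteries. Its wildtype arrays overlapped, at 0.30, 0.51, 0.00 and 0.049 ligated, against 0.18, -0.046, -0.047 and -0.043 non-ligated. So did its Has3-deficient arrays, at 0.13, 0.22 and -0.0064 ligated, against -0.060, 0.19, -0.30 and -0.15 non-ligated. For both genes the group means ran in the order wildtype ligated, Has3-deficient ligated, wildtype non-ligated and Has3-deficient non-ligated, and of the neighbours that were tested no pair passed. The Mir221 arrays of non-ligated Has3-deficient arteries did all lie below those of wildtype (-0.18 ± 0.11, adjusted p = 0.521), as 3.82% of genes did.

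Mir146, the gene of miR-146a, which restrains signalling through Traf6 and Irak1, was higher in wildtype ligated arteries by a small amount. It was at 0.51, 0.19, 0.048 and 0.00 in ligated arrays, against -0.090, -0.035, -0.16 and -0.13 in non-ligated ones, so that the groups did not overlap (upward, 14.0% of genes). It rose by 0.29 ± 0.089 (1.22-fold, adjusted p = 0.0256). Array 1 gave the highest ligated value, and without it the rise was 0.18 (adjusted p = 0.0444), a fall in size of more than 1.5 times. The call was lost without wildtype ligated array 2 (0.29, adjusted p = 0.0528) and without non-ligated array 3 (0.27, adjusted p = 0.0656) or 4 (0.28, adjusted p = 0.0571). It was lost too with only the wildtype groups fitted (adjusted p = 0.0743) and without the arrays high in neuron or fat genes (0.33, adjusted p = 0.0881). Over 17 alternatives the adjusted p ran from 0.0103 to 0.0881, and 11 passed.

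In Has3-deficient arteries Mir146 was at 0.10, 0.074 and 0.00 in ligated arrays, against -0.050, -0.14, -0.054 and 0.019 in non-ligated ones, with overlap. The change of 0.12 ± 0.097 did not pass (adjusted p = 0.49), and the difference from the wildtype response, -0.17 ± 0.13, did not either (adjusted p = 0.761). Mir146b, whose strand has the same seed, changed by -0.0044 ± 0.100 in Has3-deficient (adjusted p = 0.985) and by 0.22 ± 0.093 in wildtype arteries (adjusted p = 0.0922). The Mir146 group means were, in falling order, 0.19 in wildtype ligated, 0.059 in Has3-deficient ligated, -0.056 in Has3-deficient non-ligated and -0.10 in wildtype non-ligated arteries, and each pair of neighbours overlapped.

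The shared probe sets were tested over all 33793 probe sets. In Has3-deficient arteries 2 of the 4 rose, where 13.5% of probe sets passed and 7.74% rose, and in wildtype arteries 3 of 4 rose, where 21.9% passed and 10.7% rose. The probe set of F630028O10Rik and Mir223 had the largest change. F630028O10Rik is the non-coding gene whose span holds Mir223. This probe set was at 2.29, 1.68 and 1.59 in Has3-deficient ligated arrays, against -0.78, -0.46, -0.33 and -0.11 in Has3-deficient non-ligated ones. It was at 2.21, 2.46, 1.80 and 1.71 in wildtype ligated arrays, against -0.20, 0.00, -0.082 and -0.61 in wildtype non-ligated ones. In neither genotype did the groups come near each other. It rose by 2.27 ± 0.22 (4.83-fold, adjusted p = 8.02e-06) in Has3-deficient and by 2.27 ± 0.21 (4.81-fold, adjusted p = 2.94e-06) in wildtype arteries.

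Many markers of the myeloid cells that make miR-223 rose in the same arteries, where 10.2% of all genes rose in Has3-deficient and 13.2% in wildtype. Of 12 neutrophil genes 7 rose, 1 fell and 4 did not pass in Has3-deficient arteries, and 7 rose and 5 did not pass in wildtype arteries. Those with the lowest wildtype p were Il1r2 (3.96 and 4.10), Csf3r (3.93 and 3.91) and S100a8 (3.58 and 4.06). Of 11 macrophage genes 10 rose in each genotype, such as Mpeg1 (3.91 and 4.21). The neutrophil mean ran from 1.22 to 1.57 in Has3-deficient and from 1.03 to 1.67 in wildtype ligated arrays, against -0.59 to -0.088 and -0.70 to -0.15 in the non-ligated arrays of the same genotypes. The macrophage mean ran from 1.79 to 1.95 and from 1.81 to 2.05 in ligated arrays, against -1.09 to -0.14 and -0.63 to -0.17 in non-ligated ones, in the same order of genotypes. Their part in the signal of this probe set was not tested.

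The probe set of Vmp1 and Mir21a rose alike in both genotypes. Vmp1 encodes a membrane protein of autophagy, and the miR-21 hairpin lies in its span on chromosome 11. The values were 0.82, 0.53 and 0.77 in Has3-deficient ligated arrays, against -0.39, -0.46, -0.0012 and -0.011 in Has3-deficient non-ligated ones. They were 1.07, 0.95, 0.70 and 0.78 in wildtype ligated arrays, against 0.00, -0.063, -0.079 and -0.048 in wildtype non-ligated ones. Neither pair overlapped, as for 10.8% of probe sets upward in Has3-deficient and 12.0% in wildtype arteries. The rise was 0.92 ± 0.12 (1.90-fold, adjusted p = 0.000134) in Has3-deficient and 0.92 ± 0.11 (1.89-fold, adjusted p = 3.91e-05) in wildtype arteries. A probe set of Vmp1 alone rose by 1.25 ± 0.18 (adjusted p = 0.000217) and 1.25 ± 0.17 (adjusted p = 5.85e-05), so the shared value does not by itself show a change of Mir21a.

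The probe set of Mir155 and its host gene Mir155hg rose in wildtype arteries. It was at 0.037, 0.51, 0.24 and 0.11 in ligated arrays, against -0.32, -0.22, -0.024 and -0.072 in non-ligated ones, a rise of 0.38 ± 0.11 (1.31-fold, adjusted p = 0.0166). The groups did not overlap, as for 12.0% of probe sets upward. The call was lost without non-ligated array 1 (0.33, adjusted p = 0.0542) and without the arrays high in neuron or fat genes (0.27, adjusted p = 0.156). In Has3-deficient arteries it was at 0.12, 0.11 and 0.10 in ligated arrays, against -0.037, 0.00, -0.12 and -0.36 in non-ligated ones. Those groups did not overlap either (10.8% upward), and the change of 0.24 ± 0.11 did not pass (adjusted p = 0.205).

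The probe set of Mir126a and Egfl7 differed little between groups. Egfl7, on chromosome 2, encodes a secreted protein of endothelial cells. All 15 values lay between -0.12 and 0.20, and the ligation change was 0.033 ± 0.070 in Has3-deficient (interval -0.12 to 0.18, adjusted p = 0.845) and -0.016 ± 0.065 in wildtype arteries (interval -0.15 to 0.12, adjusted p = 0.919). A separate probe set of Egfl7 changed by -0.26 ± 0.14 (adjusted p = 0.237) and 0.070 ± 0.13 (adjusted p = 0.775). Endothelial markers went both ways. Of 11, 4 rose and 3 fell in Has3-deficient arteries, and 4 rose and 4 fell in wildtype arteries, with Emcn up (0.97 and 1.5) and Tek (-0.86 and -1.45) and Pecam1 (-0.64 and -0.84) down.

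**Figure D3:**
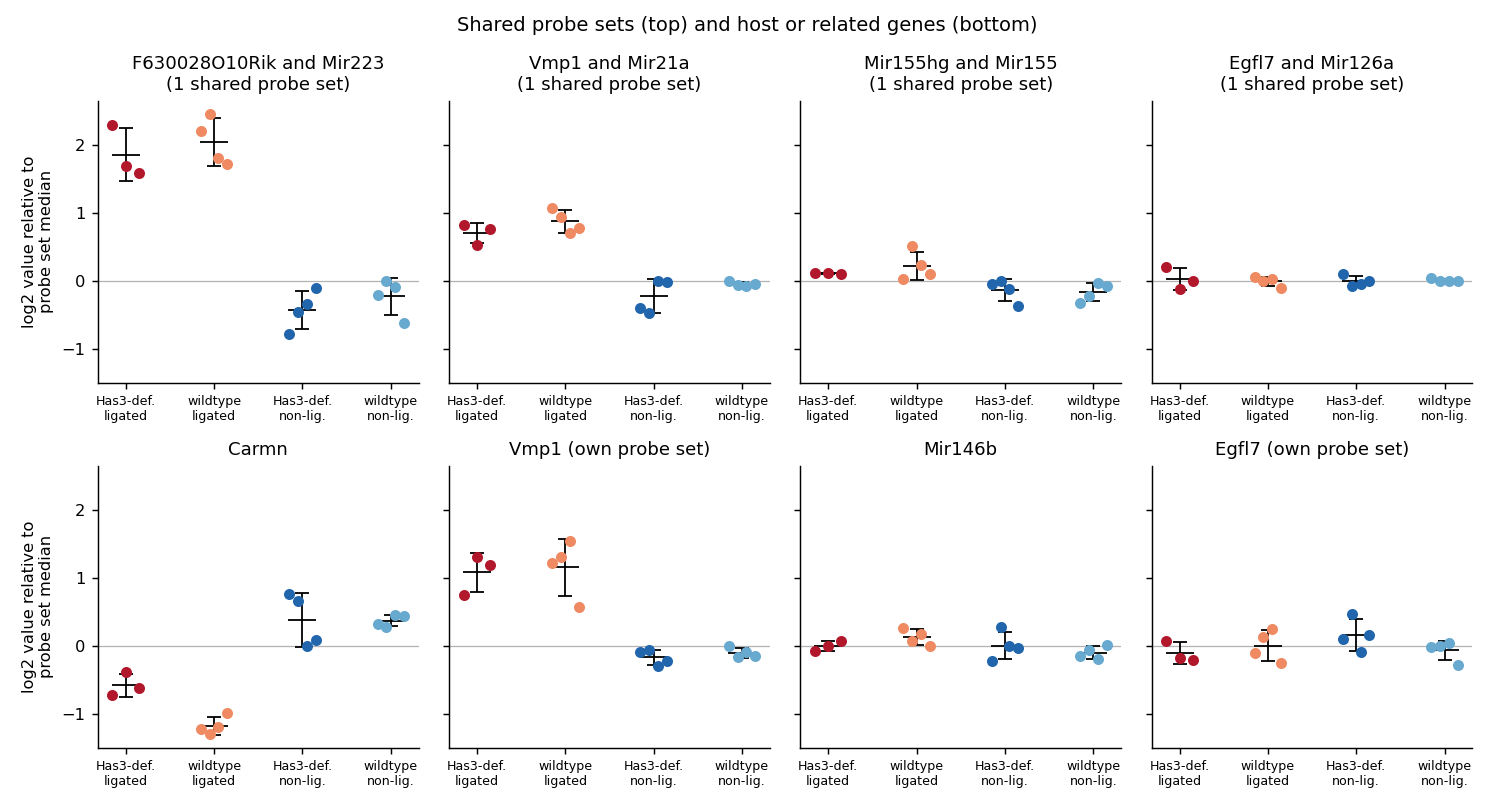
Values of the 4 shared probe sets (top) and of Carmn, Vmp1, Mir146b and Egfl7 on probe sets of their own (bottom), as log2 relative to the median, by group; points are arrays, dashes means and bars 1 standard deviation. Ligated arrays lie above non-ligated ones for F630028O10Rik and Mir223 and for Vmp1 and Mir21a in both genotypes, and below them for Carmn.

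None of the 4 shared probe sets passed between genotypes in ligated or non-ligated arteries, or in the test of the difference of the responses, with limma, and 0 did at an unadjusted p under 0.05. Of all probe sets 0%, 0.0533% and 0% passed in these comparisons, and 4.59%, 12.3% and 7.86% had an unadjusted p under 0.05, in the same order. The differences of the responses were 0.0062 ± 0.30 for the probe set of Mir223 (interval -0.65 to 0.66) and 0.0011 ± 0.17 for that of Mir21a (interval -0.36 to 0.36). For the probe set of Mir155 it was -0.14 ± 0.15 (interval -0.47 to 0.19), and for that of Mir126a 0.049 ± 0.095 (interval -0.16 to 0.25).

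**Figure D4:**
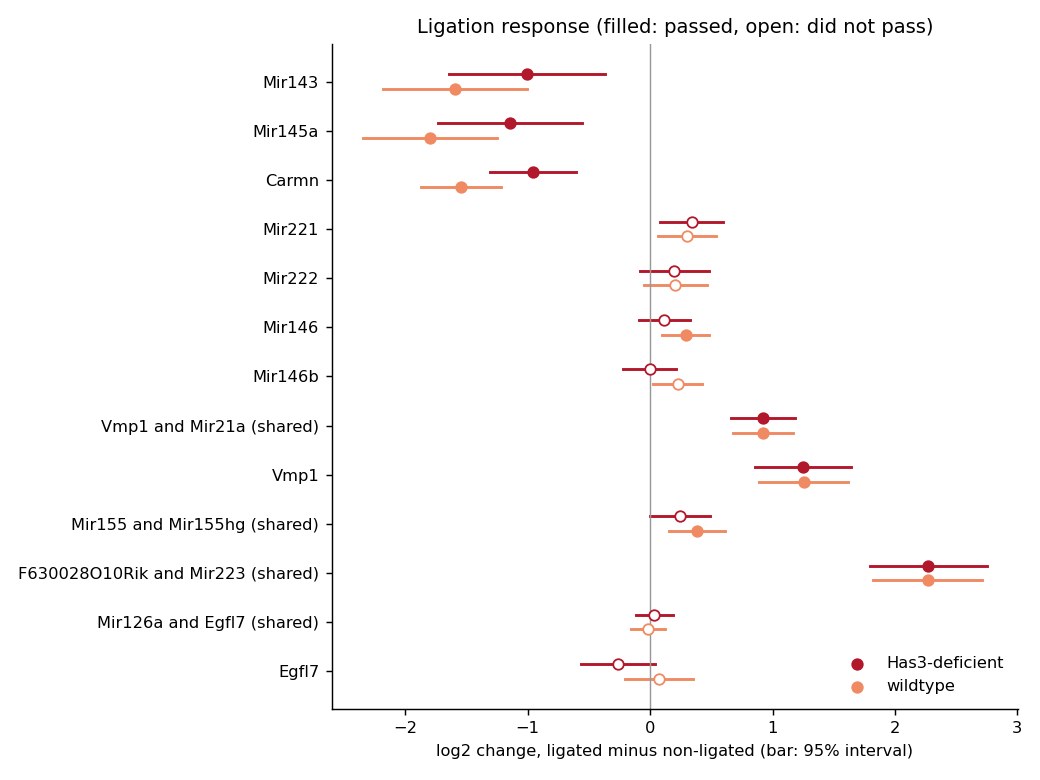
Ligation response of the microRNA genes, the shared probe sets and host or related genes, as the log2 change of ligated minus non-ligated arteries (horizontal axis) with its 95% interval, in Has3-deficient (upper mark) and wildtype (lower mark) arteries; filled marks passed the test. Mir143, Mir145a and Carmn lie left of 0, and the probe sets of Mir223 and Mir21a right of 0, in both genotypes.

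Among the 467 microRNA genes with a probe set of their own, long host transcripts not counted, Mir145a and Mir143 had the lowest and the next lowest ligation change in both genotypes. Of the 467 genes, 32 passed in Has3-deficient (6.85%) and 76 in wildtype arteries (16.3%), beside 18.3% and 27.8% of all genes. Their median change was -0.017 and 0.0080. In wildtype arteries the next lowest passing change was that of Mir701 (-1.39), which overlaps Ttc28, and the highest were those of Mir692-1 (1.62), Mir5104 (1.46), which overlaps Zc3h12d, and Mir3088 (1.45), which overlaps Ak8. In Has3-deficient arteries these 4 were at -0.91, 1.47, 1.31 and 1.24.

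**Figure D5:**
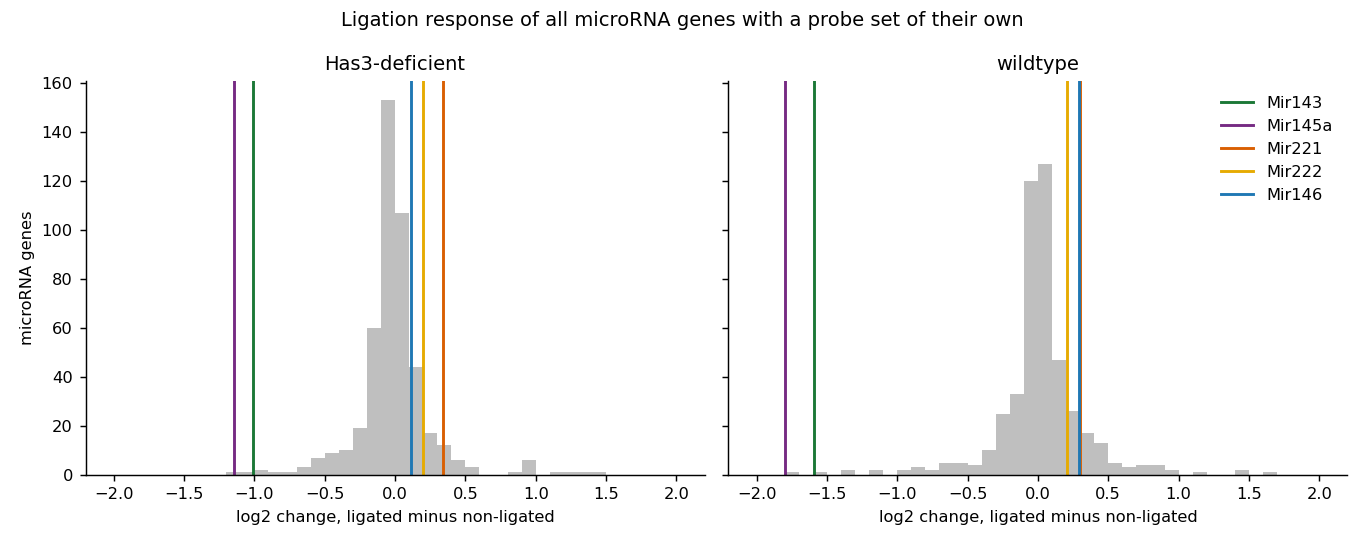
Ligation change (log2, ligated minus non-ligated, horizontal axis) of 467 microRNA genes with a probe set of their own, as counts of genes in bins of 0.1, in Has3-deficient (left) and wildtype (right) arteries; coloured lines mark 5 genes. Mir143 and Mir145a lie at the low end in both panels, and Mir221, Mir222 and Mir146 between 0.12 and 0.34; in wildtype the line of Mir146 covers that of Mir221.

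Likeness over the 15 arrays was measured as the root-mean-square difference of the values, which is 0 for identical profiles. Among all genes Mir145a was nearest to Mir143, at 0.26 log2 units, and Mir143 nearest to Mir145a. Among named genes, without other microRNA and predicted genes, Mir143 was followed by Heyl (0.27), a transcription factor induced by Notch, Lmod1 (0.27), an actin nucleator of smooth muscle, and Carmn (0.29). Mir145a was followed by Car8 (0.28), Tek (0.28), the receptor of angiopoietins, and Heyl (0.28). Among all genes Carmn ranked 4 in nearness to Mir143 and 12 to Mir145a, at 0.34 for the latter. Nearest to Mir146, whose values vary little, were Nme4 (0.064), Fut4 (0.067) and Umps (0.081).

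Counts in the gene lists that follow, and of the cell type markers above, stand beside shares over all genes. These are 10.2% higher and 8.08% lower in Has3-deficient, and 13.2% higher and 14.6% lower in wildtype arteries. Of 17 measured genes that make and use microRNAs, 0 rose and 2 fell in Has3-deficient arteries and 0 rose and 5 fell in wildtype arteries, with a median change of -0.061 and -0.11. The 2 that fell in Has3-deficient arteries are near the share over all genes. Dicer1, which cuts the hairpin to the mature strand, changed by -0.17 ± 0.083 (adjusted p = 0.185) in Has3-deficient arteries and fell by 0.38 ± 0.076 (adjusted p = 0.00177) in wildtype ones. Ddx5, a helicase that helps Drosha, fell by 0.38 ± 0.12 and 0.50 ± 0.11. Its relative Ddx17 (-0.24 and -0.29) and Tnrc6c, a partner of Argonaute (-0.35 and -0.52), passed in wildtype arteries. None of these 17 genes passed between genotypes or in the test of the difference of the responses.

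Of 19 transcription factors known to act on these microRNA genes, 9 rose and 1 fell in Has3-deficient arteries. In wildtype arteries 11 rose and 1 fell. The median change was 0.37 and 0.40. The 1 that fell in Has3-deficient arteries was Myocd, which is also in the list of contractile genes. Spi1, a myeloid factor that acts on Mir223, rose by 2.46 ± 0.13 and 2.29 ± 0.12. Cebpb, which also acts in myeloid cells, rose by 1.23 ± 0.18 and 1.46 ± 0.17. Junb, of the AP-1 family, rose by 1.32 ± 0.17 and 1.59 ± 0.16, and Nfkb2, of the NF-kB family that induces Mir146 and Mir155, by 0.87 ± 0.12 and 1.14 ± 0.12.

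Messenger RNAs reported elsewhere as targets of these microRNAs were counted next. Whether a microRNA had a part in their changes was not tested. Some were also among the transcription factors above: Klf4 (miR-143 and miR-145), Ets1 (miR-221 and miR-222), Relb (miR-146a), and Spi1 and Cebpb (miR-155). Timp3 is listed for miR-21 and also for miR-221 and miR-222. Of 7 measured targets of miR-143 and miR-145, 1 rose and 1 fell in Has3-deficient arteries. In wildtype arteries 2 rose and 1 fell. These are too few genes to compare with the shares over all genes. Fscn1, an actin-bundling protein, rose by 1.5 ± 0.17 and 1.75 ± 0.16. Ace, the angiotensin-converting enzyme, fell by 0.51 ± 0.14 and 0.63 ± 0.13. Mapk7 was at 0.18 (adjusted p = 0.311) and 0.44 (adjusted p = 0.00438). Klf4 and Klf5 were measured and passed in neither genotype. Of 8 targets of miR-221 and miR-222, 3 rose and 1 fell, and 3 rose and 2 fell, among them Icam1 (0.81 and 0.85), an adhesion molecule, Ets1 (0.37 and 0.34) and Timp3 (-0.44 and -0.65), an inhibitor of matrix proteases. The cell cycle inhibitor Cdkn1c was at -0.17 (adjusted p = 0.242) and -0.36 (adjusted p = 0.00551). Cdkn1b was measured and was not among the targets that fell in either genotype.

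For miR-21, 1 of 7 measured targets rose and 4 fell in Has3-deficient arteries, and 1 rose and 3 fell in wildtype arteries. Reck, a membrane inhibitor of matrix proteases, fell by 0.86 ± 0.16 and 1.14 ± 0.15, and Tpm1, a tropomyosin that is also part of the contractile apparatus, by 0.66 ± 0.15 and 1.02 ± 0.14, while Btg2 rose by 0.82 ± 0.14 and 0.88 ± 0.13. Of 6 measured targets of miR-146a, 2 rose in each genotype, Irak2 (1.15 and 1.09) and Relb (0.63 and 0.72), both genes of NF-kB signalling. Traf6 and Irak1 were measured and passed in neither genotype. Of 8 targets of miR-155, 5 rose in each: Spi1 and Cebpb, already given above, Inpp5d (2.41 and 2.25), a lipid phosphatase of blood cells, Bach1 (1.21 and 1.13) and Jarid2 (0.66 and 0.83).

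Of 6 measured targets of miR-223, 3 rose in Has3-deficient arteries, and 3 rose and 3 fell in wildtype arteries. The chemokines Ccl3 (4.89 and 5.57) and Cxcl2 (4.19 and 4.61) and the inflammasome sensor Nlrp3 (2.73 and 2.80) rose in both, and Mef2c was at -0.30 (adjusted p = 0.091) and -0.61 (adjusted p = 0.000575). Of 7 targets of miR-126, 3 rose and 1 fell, and 4 rose and 1 fell. Rgs16 (1.37 and 1.54), a regulator of G protein signals, Vcam1 (0.86 and 0.88), an adhesion molecule, and Spred1 (0.47 and 0.55), an inhibitor of Ras signalling, rose in both, and Irs1 (-0.50 and -0.69), an adaptor of the insulin receptor, fell in both. In these pairs of values Has3-deficient arteries come first.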

How the data were processed

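Total RNA of carotid arteries (100 ng per array) was converted to biotin-labelled cDNA, per the labels' protocols. The deposited table holds log2 values for 33793 probe sets, centred by the authors on each probe set's median of the 15 arrays, as the values show. That the base is 2 is taken from the values. Its software, background correction and normalization were not given in the sources used here. Arrays have no read depth, and their number limits the precision. Array medians lie between -0.0014 and 0.017, and the standard deviations of the arrays between 0.23 and 0.42.

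Gene names came from the platform annotation, updated through the RefSeq gene table (GRCm38.p6): 23521 probe sets had 1 symbol, 1814 several and 8458 were unlisted. Probe sets of a gene were averaged (22180 genes). limma 3.58.1 in R 4.3.3 fitted the 4 groups together, with empirical Bayes moderation, and p-values were adjusted by the Benjamini-Hochberg method over all genes, or over all probe sets for shared ones. The fit was tested on simulated data. Members and gene lists were chosen with earlier results of these data known. Genes named from a list are those that passed in either ligation comparison, up to 4 (3 for cell type markers) by the lowest wildtype p. Host and related genes are named in full. Myocd, Klf4, Klf5, Cdkn1b, Traf6 and Irak1 were named outside this rule. Alternatives are given in the closing section. Levels are lost by centring, so the planned filter on dim probe sets could not be applied. The check below did not show that replicate numbers pair the samples, and low correlations cannot show that the samples are unpaired.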

Additional observations from a re-analysis of the deposited data

Results flagged for a closer look

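In wildtype non-ligated arteries, array 1 of Mir222 lay at 0.18, far above the other 3, whose values were -0.047 to -0.043. In the same group, array 1 of the probe set of Mir126a and Egfl7 was at 0.048 while the other 3 were tied at 0.00. The gap is small, and the flag rests on the tie. Array 4 of Egfl7 was at -0.27, apart from the other 3. These 3 are among 39 groups of 4 arrays examined with Dixon's criterion, which flags about 1 group in 20 by chance. No cause was tested.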

How the results depend on the processing

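The wildtype falls of Mir143 and Mir145a passed in 17 of 17 alternatives, and the rises of the probe sets of Mir223 and Mir21a in 15 of 15 in wildtype and 13 of 13 in Has3-deficient arteries. With the 4 shared probe sets counted beside the 5 genes, 6 of 9 passed for ligation in wildtype and 4 of 9 in Has3-deficient arteries. The calls added were those of shared probe sets, which are assigned to neither gene, so they are not calls of microRNA genes. Shares over all genes were 27.8% and 18.3% in the main fit, in the same order, and are not given for the alternatives. In a fit of only the Has3-deficient groups, with fewer arrays, 1 of 5 members passed. Leaving out 1 array gave 2 to 4 members in wildtype and 0 to 2 in Has3-deficient arteries, 0 without ligated array 3. The replicate block ended the Mir146 call in wildtype arteries (0.29, adjusted p = 0.0621), so that 2 of 5 members passed, and changed no other member's call. Same-numbered wildtype arrays correlated with r = 0.028 to 0.16. No paired analysis was possible because of too few shared numbers for ligation in Has3-deficient arteries, for genotype in ligated arteries and for the difference of the responses.

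Signs turned for values that did not pass, and the cause was not tested. Most were small, and the Mir143 difference of responses, at 0.58, was not. Without the 5 arrays high in neuron or fat genes, chosen after seeing the data and leaving 1 Has3-deficient non-ligated array assumed to vary like the others, the difference of responses was -0.020 for Mir143 and -0.076 for the probe set of Mir223. Mir222 was then at -0.077 for ligation in Has3-deficient arteries and 0.24 for genotype in non-ligated ones. Array weights gave -0.054 for the difference of responses of Mir221. For the probe set of Mir126a they gave -0.025 for ligation in Has3-deficient arteries, 0.0085 for genotype in non-ligated arteries and -0.0001 for the difference of responses. Quantile normalization gave 0.052 for the difference of responses of Mir222. Leaving out 1 array, genotype in non-ligated arteries ran from -0.11 to 0.34 for Mir143, from -0.026 to 0.11 for the probe set of Mir155 and from -0.050 to 0.0049 for that of Mir126a. The difference of responses ran from -0.10 to 0.12 for Mir221, from -0.082 to 0.091 for Mir222, from -0.081 to 0.088 for the probe set of Mir21a, from -0.21 to 0.14 for that of Mir223 and from -0.038 to 0.12 for that of Mir126a. For the last, ligation ran from -0.054 to 0.11 in Has3-deficient and from -0.037 to 0.016 in wildtype arteries, and genotype in ligated arteries from -0.054 to 0.10.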
